A study of Mus musculus with 6 samples.

Results

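Expression of 8 keratin genes was examined in RNA from the proximal region of the mouse incisor, in libraries of Arid1a conditional knockout and control mice. Krt7, Krt8, Krt18 and Krt19 are keratins of simple epithelia, and Krt5, Krt14, Krt15 and Krt17 are keratins of stratified epithelia. The 8 genes were taken by symbol from the 25703 genes of the deposited count table, and the set was picked because Krt8 and Krt18 were higher in the knockout in these same libraries. The genotype difference of the 8 genes is therefore given as a description, without a test.

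The Arid1a cKO group was 3 libraries from Gli1-CreER;Arid1a fl/fl mice, and the control group was 3 libraries from Arid1a fl/fl mice, so the floxed Arid1a alleles were shared by both groups and the labels give the recombinase to the knockout alone. All mice were 6 weeks old, of the C57BL/6 strain background, and the labels' protocol gives tamoxifen at 1.5 mg per 10 g body weight daily for 3 days at 1 month of age for every sample. Gli1-CreER is a tamoxifen-activated recombinase made where Gli1 is expressed, which in the incisor includes mesenchymal stem cells and cells of the proximal epithelium, so cells outside the Gli1 lineage keep Arid1a in the knockout tissue. The labels do not say whether each library was a separate animal, and p-values then measure only the spread between these libraries, which may be technical. The totals were 27300932 to 37908478 estimated counts per library. Arid1a itself, whose product is part of a nucleosome remodeller of the SWI/SNF kind, averaged 140.2 ± 4.57 CPM, the count scaled by library size, in Arid1a cKO and 231 ± 15.2 CPM in control (SD, n = 3 each). It fell by 0.72 on the log2 scale (edgeR quasi-likelihood test, Benjamini-Hochberg adjusted p = 0.00802).

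Keratins are the intermediate filament proteins of epithelial cells, and a filament is built from a type II and a type I keratin joined as an obligate pair. Krt8 and Krt18 form the pair of simple, single-layered epithelia, whereas Krt5 and Krt14 form the pair of basal cells of stratified epithelia. The epithelium of the mouse incisor contains the stem cells of the labial cervical loop and the ameloblasts that lay down enamel, and it is known to express Krt14. In RNA from whole tissue, a change in the number of epithelial cells cannot be told apart from a change in keratin RNA per cell.

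Most of the type II genes lie in a cluster on chromosome 15 and most of the type I genes in a cluster on chromosome 11. Krt18 is a type I gene located beside Krt8 in the type II cluster. Krt8 lies at chr15:101996698-102004482 on the minus strand and Krt18 at chr15:102028180-102032027 on the plus strand (mm10). They are transcribed away from each other with starts 23698 bases apart and 0 keratin genes between them. The bases upstream of these neighbouring genes, and of Krt5 for comparison, are shown because Krt8 and Krt18 form a protein pair, lie side by side and were high in the same libraries. RefSeq promoter entries (GRCm38.p6) were matched for 5 of the 8 genes, and only bases upstream of both the RefSeq start and the deposited gene start are printed, 5′ to 3′ on the strand of the gene. Capitals mark a match to a searched motif.
Krt8, chr15:102004483-102004592, minus strand: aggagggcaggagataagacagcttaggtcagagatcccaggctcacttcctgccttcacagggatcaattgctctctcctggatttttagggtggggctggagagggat
Krt18, chr15:102027966-102028179, plus strand: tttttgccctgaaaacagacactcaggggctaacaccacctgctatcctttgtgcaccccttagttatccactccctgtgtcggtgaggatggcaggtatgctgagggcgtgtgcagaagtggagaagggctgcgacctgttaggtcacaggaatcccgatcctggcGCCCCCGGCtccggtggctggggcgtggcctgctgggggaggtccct
Krt5, chr15:101712906-101713155, minus strand: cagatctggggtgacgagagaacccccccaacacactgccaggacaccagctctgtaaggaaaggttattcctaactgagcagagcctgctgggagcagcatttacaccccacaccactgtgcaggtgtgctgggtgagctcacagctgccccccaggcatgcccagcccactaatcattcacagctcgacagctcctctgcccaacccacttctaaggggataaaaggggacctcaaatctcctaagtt

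In the 250 bases before each RefSeq start, both strands were searched for the TATA box TATAAA, the AP-1 motif TGANTCA, the AP-2 motif GCCNNNGGC, the Sp1 motif GGGCGG and the ETS motif CCGGAA. Krt8 and Krt5 held no match in that window. For Krt8 only 110 of these 250 bases lie upstream of the deposited gene start, and for Krt18 214. Krt18 held 1 match, GCCCCCGGC, to the AP-2 motif, which 13.7% of the 32851 promoters of the same length held. Of those promoters 12.4% held the TATA box, 6.75% the AP-1 motif, 32.7% the Sp1 motif and 12% the ETS motif. Krt7 and Krt14 were also matched, but their RefSeq starts lie well inside the deposited genes, so their sequences are not shown.

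The mean level was higher in Arid1a cKO for 8 of the 8 keratins, where the log2 fold change was above 0 for 50.8% of all 19613 genes tested. The simple pair Krt8 and Krt18 was higher in Arid1a cKO in every library, and these were the 2 genes of the 8 whose groups did not overlap. Among all genes tested, 13.8% were higher in Arid1a cKO without overlap, and nothing is read from either share because the set was picked on this contrast. Krt8, the type II keratin of simple epithelia, was measured at 30.6, 23.7 and 34.8 CPM in Arid1a cKO, against 14.6, 15.3 and 12.1 CPM in control. The lowest knockout library lay well above the highest control library. The means were 29.7 ± 5.62 CPM in Arid1a cKO and 14.0 ± 1.65 CPM in control (SD, n = 3 each), a log2 fold change of 1.08 (SE 0.155), or 2.12-fold.

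Krt18, the type I partner of Krt8, was measured at 21.5, 18 and 24.8 CPM in Arid1a cKO, against 13.03, 10.9 and 9.31 CPM in control. Again every knockout library was above every control library. The means were 21.4 ± 3.39 CPM in Arid1a cKO and 11.1 ± 1.87 CPM in control (SD, n = 3 each), with a log2 fold change of 0.95 (SE 0.157), or 1.93-fold. For both genes Arid1a cKO replicate 3 was highest and Arid1a cKO replicate 2 lowest among the knockouts, and control replicate 3 was the lowest library of all. A processed copy of Krt8, Krt8-ps on chromosome 7, shares sequence with it: of the 75-base windows of Krt8 transcripts, the length of the reads, 22.0% also occur in Krt8-ps. Reads could thus be split between the 2 genes. The sum of Krt8 and Krt8-ps averaged 37.1 ± 6.79 CPM in Arid1a cKO and 18.4 ± 1.19 CPM in control (SD, n = 3 each), a ratio of 2.02, against 2.12 for Krt8 alone. No 75-base window of Krt18 was shared with another gene. Krt8 overlaps Gm36026 on the opposite strand, which reached at most 0.218 CPM, and no source used here says whether counting used strand, so reads of overlapping genes cannot be told apart.

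The other simple keratins were scarce. Krt7 (chr15:101411043-101430313), a type II keratin of ducts and other simple epithelia, was measured at 2.06, 0.920 and 1.62 CPM in Arid1a cKO, against 0.382, 0.761 and 1.31 CPM in control. Control replicate 3 exceeded Arid1a cKO replicate 2, so the groups overlapped. The log2 fold change was 0.91 with an SE of 0.473, and it was 0.57 without control replicate 1 and 1.44 without control replicate 3. Krt19 (chr11:100140810-100148665), the smallest type I keratin, had 8, 3 and 8 estimated counts in Arid1a cKO, against 2, 4 and 3 in control. Its groups overlapped, its counts were too few to pass the filter on low values, and it was given no fold change.

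**Figure D1:**
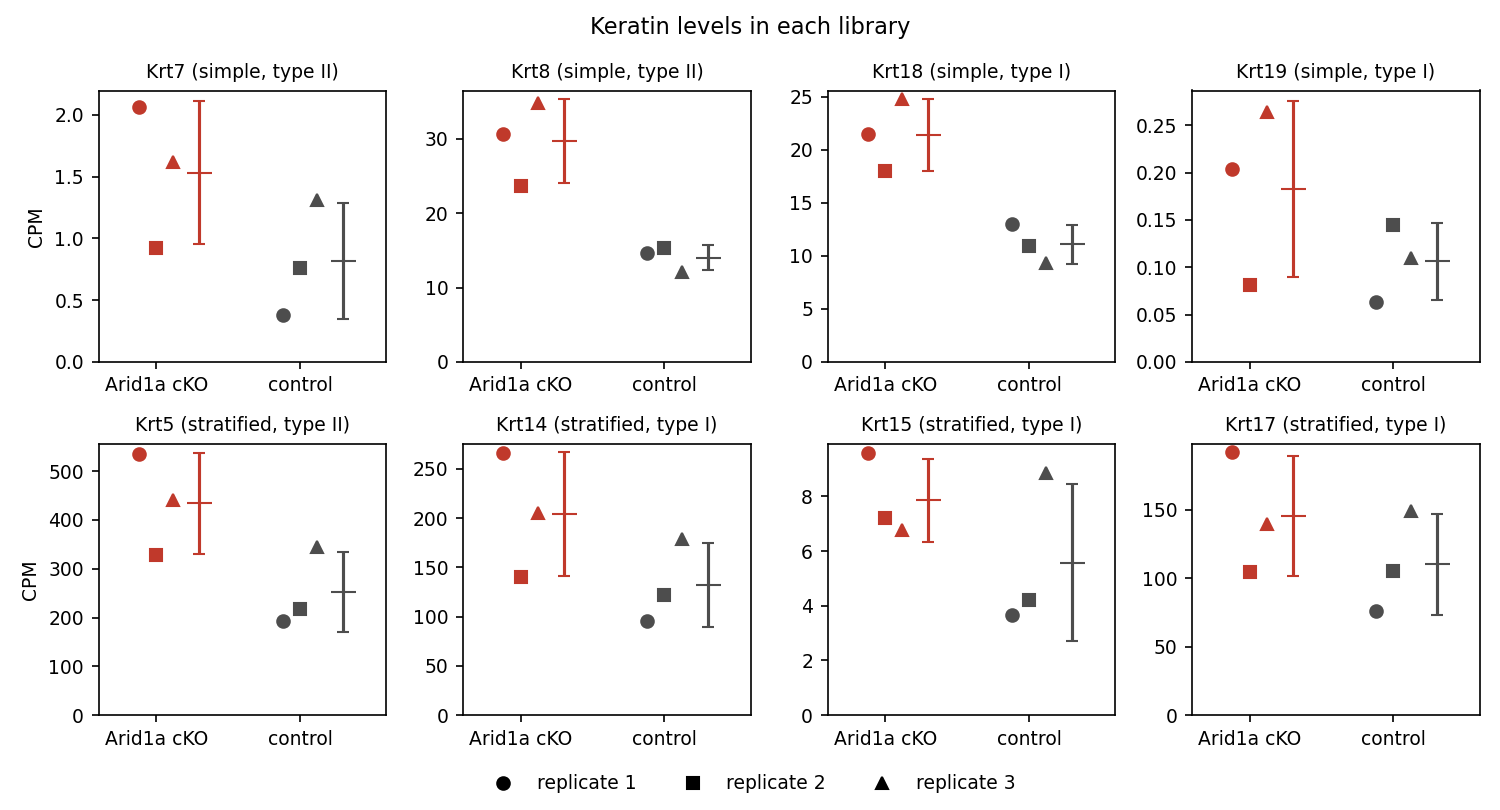
Level of the 8 keratin genes in each library, in CPM on a linear axis that starts at 0, for Arid1a cKO (left, red) and control (right, grey). Symbols are libraries and bars are the mean ± SD of 3 libraries. The groups are apart for Krt8 and Krt18 and overlap for the other 6 genes.

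The stratified keratins had higher mean levels in Arid1a cKO for all 4 genes, yet in each of them at least 1 control library lay above a knockout library. Krt5 (chr15:101707070-101712898), the type II keratin of basal cells, was measured at 534, 327 and 441 CPM in Arid1a cKO, against 192, 217 and 345 CPM in control. Control replicate 3 lay just above Arid1a cKO replicate 2. The means were 434 ± 104 CPM in Arid1a cKO and 251 ± 81.9 CPM in control (SD, n = 3 each), with a log2 fold change of 0.79 (SE 0.272).

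Krt14 (chr11:100203162-100207548), the type I partner of Krt5, was measured at 266, 140.6 and 205 CPM in Arid1a cKO, against 95.2, 122 and 179 CPM in control. The overlap came from the same libraries as for Krt5. The log2 fold change was 0.63 (SE 0.314), and it was 0.39 without Arid1a cKO replicate 1 and 0.92 without control replicate 3. Krt17 (chr11:100256217-100261029), a type I keratin of skin appendages and of wounded epidermis, was measured at 192, 104.8 and 139 CPM in Arid1a cKO, against 76.1, 105.06 and 149 CPM in control. Control replicate 3 lay above 2 of the 3 knockout libraries. Its log2 fold change was 0.40 (SE 0.315), 0.15 without Arid1a cKO replicate 1, 0.20 without control replicate 1 and 0.69 without control replicate 3.

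Krt15 (chr11:100131758-100135928), a type I keratin of basal cells that marks stem cells of the hair follicle bulge, was measured at 9.58, 7.23 and 6.76 CPM in Arid1a cKO, against 3.66, 4.20 and 8.87 CPM in control. Control replicate 3 was again above 2 knockout libraries. The log2 fold change was 0.50 (SE 0.345), and it was 0.33 without Arid1a cKO replicate 1, 0.27 without control replicate 1 and 1.01 without control replicate 3. Of the 75-base windows, 7.77% of those of Krt5 and 5.71% of those of Krt14 also occur in another gene, chiefly Krt6a for Krt5 and Krt16 for Krt14, and 0% for Krt15, Krt17 and Krt19. Krt5 overlaps Gm44323 and Krt7 overlaps Gm671, both on the opposite strand.

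**Figure D2:**
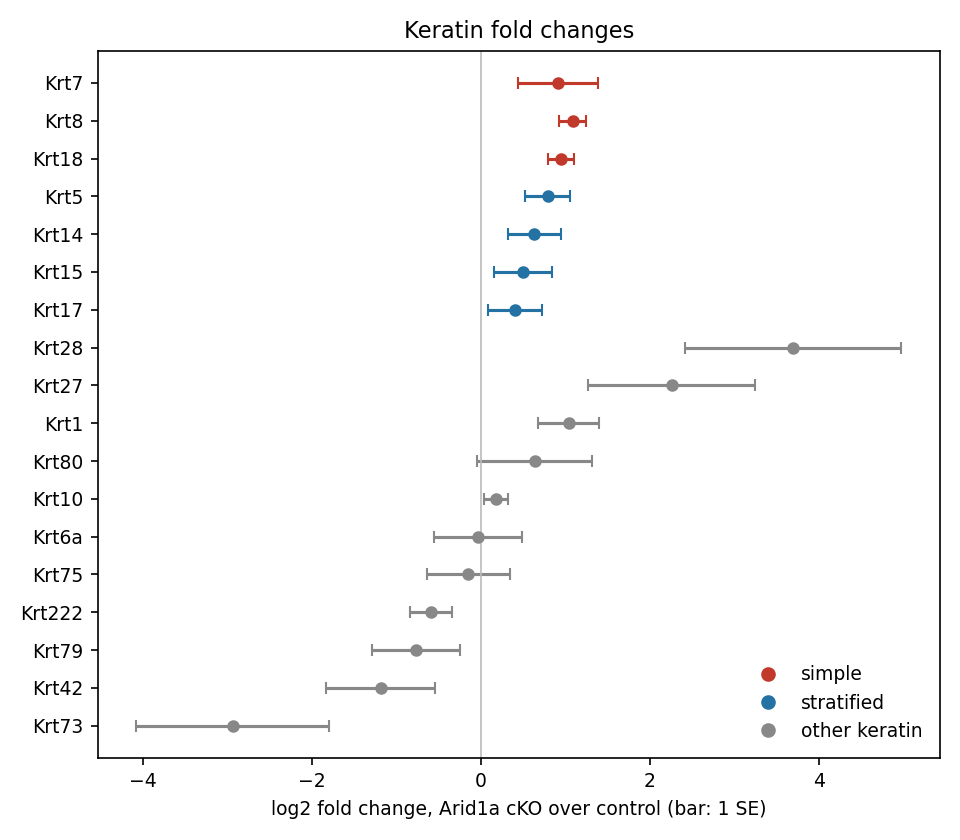
Log2 fold change of Arid1a cKO over control for the 7 of the 8 keratins that passed the filter and for 11 other keratins, with bars of 1 SE. The 4 stratified keratins lie between 0.40 and 0.79, below the 3 simple keratins at 0.91 to 1.08, and several other keratins have wider bars on either side of 0.

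Averaged over genes, the log2 fold change was 0.98 for the 3 simple keratins that passed the filter and 0.58 for the 4 stratified keratins, a difference of 0.40. The median over the 7 genes was 0.79, where the median over all genes tested was 0.0043. The difference between the classes was not the same in every library. On a scale where the control mean is 0, the mean log2 CPM of the simple minus that of the stratified keratins was 0.19, 0.33 and 0.61 in Arid1a cKO, against 0.26, 0.19 and -0.45 in control. The groups overlapped, and control replicate 3 stood apart from the other libraries. Without that library the difference between the classes was 0.17, and from the authors' normalized table it was 0.19 with pseudocount 1 and 0.025 with pseudocount 5.

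The 6 libraries thus ordered the keratins in different ways within a genotype. Control replicate 3 had the highest control level of Krt5, Krt14, Krt15, Krt17 and Krt7, and the lowest of Krt8 and Krt18. Among the knockouts, Arid1a cKO replicate 1 was highest for those same 5 genes, and Arid1a cKO replicate 3 was highest for Krt8, Krt18 and Krt19. Deviations of log2 CPM from the genotype mean were correlated over the 6 libraries at r = 0.864 between Krt8 and Krt18 and at r = 0.983 between Krt5 and Krt14. Krt7 deviated with the stratified keratins (r = 0.819 to 0.978) and not with Krt8 (r = 0.075), and Krt8 and Krt5 gave r = 0.01. These values describe 6 libraries that share their normalization, and r rests on few points. Of 11687 genes compared, 109 had an r above 0.9 with the mean of Krt8 and Krt18, and 330 with the mean of Krt5 and Krt14. Removing the genotype means leaves fewer free values than libraries, so a high r is reached easily. How many unrelated genes would reach it was not computed, and nothing is read from these counts.

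**Figure D3:**
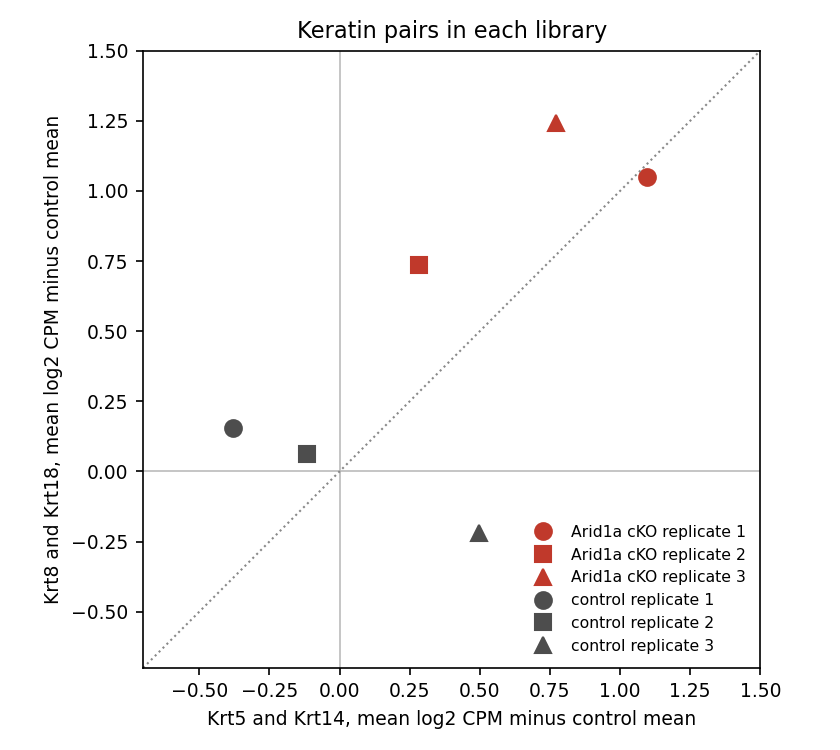
Mean log2 CPM of Krt8 and Krt18 (vertical) against that of Krt5 and Krt14 (horizontal) in each library, both minus the control mean, with a dotted line where they are equal. The knockout libraries lie at 0.74 to 1.24 on the vertical axis and the controls at -0.22 to 0.16, while on the horizontal axis Arid1a cKO replicate 2 at 0.28 lies below control replicate 3 at 0.50.

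The genes closest to the mean of Krt8 and Krt18 in these deviations were Gnl2 and Ing1 (r = 0.997 each), Dcaf5, Irgq and Ubtf (r = 0.988 to 0.994). Those closest to the mean of Krt5 and Krt14 were Chst1 (r = 1.000), Kdf1 (r = 0.997), Afap1l2 (r = 0.996), Lamb3 and Tmed8 (r = 0.995 each). Lamb3 encodes a chain of laminin-332, the basement membrane ligand that anchors basal cells. None of these 10 genes passed the test between genotypes (edgeR, adjusted p = 0.238 or above). Shared regulation was not tested, and r does not reflect the size of a deviation. Gnl2 was at 57.2, 54.5 and 58.7 CPM in Arid1a cKO, against 57.7, 57.3 and 54.8 CPM in control.

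The keratins spanned a wide range of levels per kilobase of exon, with the stratified Krt5, Krt14 and Krt17 at the top in every library. The mean over all 6 libraries was 156 CPM per kb for Krt5, 95.5 for Krt14 and 82.4 for Krt17, then 11.3 for Krt18, 11.2 for Krt8, 3.80 for Krt15, 0.167 for Krt7 and 0.0779 for Krt19. Krt5 exceeded Krt14 by 1.62-fold and Krt14 exceeded Krt17 by 1.14-fold, both in 6 of 6 libraries. Krt17 exceeded Krt18 by 7.42-fold, Krt8 exceeded Krt15 by 2.89-fold, Krt15 exceeded Krt7 by 24.6-fold and Krt7 exceeded Krt19 by 2.11-fold, also in 6 of 6. Each of these 6 neighbouring pairs gave p = 0.03125, the smallest that an exact two-sided sign-flip permutation test over 6 libraries can give, and 0.0365 after adjustment over the 7 pairs. The pairs and their direction were taken from the mean levels in these same 6 libraries. Each p therefore describes only how steady a ratio was across them. Krt18 and Krt8 did not differ beyond their spread (ratio 1.03, higher in 3 of 6 libraries, exact permutation p = 0.5625). The ratio of Krt7 to Krt19 rests on 2 to 8 counts of Krt19 per library. Per kilobase of coding length, Krt15 exceeded Krt7 by 6.17-fold and Krt7 exceeded Krt19 by 7.07-fold, both still in the same direction.

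**Figure D4:**
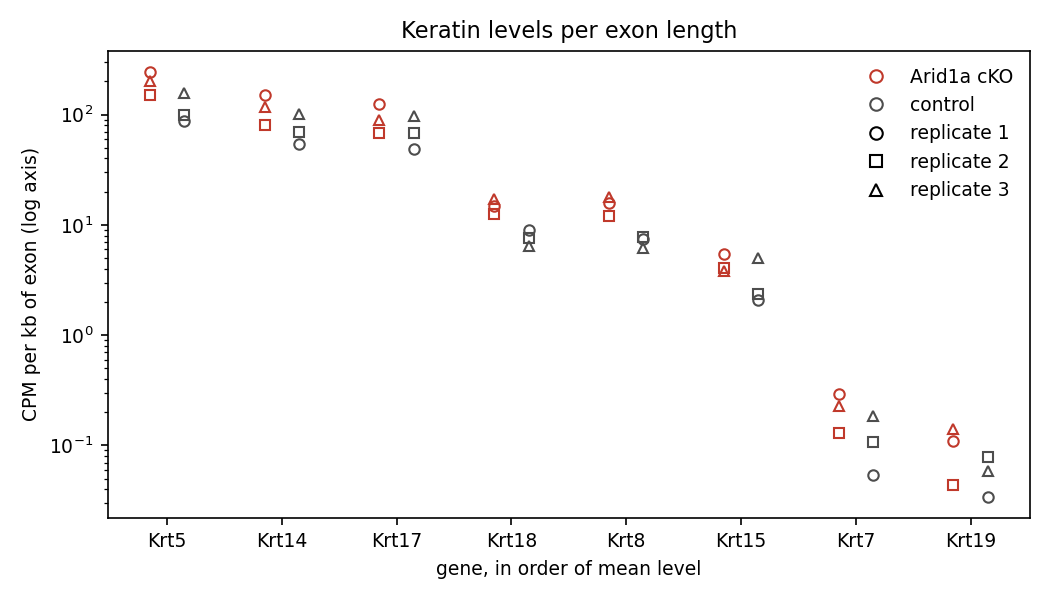
Level per kilobase of exon of the 8 keratins in each library, on a log axis in CPM per kb, with genes in order of the mean and Arid1a cKO (red) left of control (grey). Krt5, Krt14 and Krt17 lie at 49.1 to 243 CPM per kb in all 6 libraries, Krt8 and Krt18 at 6.20 to 17.8, and Krt7 and Krt19 below 0.3.

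Because type I and type II proteins join in equal number, the RNA ratio of each pair was set against 1. Krt8 over Krt18 was 1.04, 0.966 and 1.03 in Arid1a cKO, against 0.823, 1.03 and 0.957 in control. Its geometric mean of 0.972 did not differ from 1 beyond the spread (exact sign-flip permutation test, adjusted p = 0.5625 over 4 ratios). Krt5 over Krt14 was 1.61, 1.86 and 1.72 in Arid1a cKO, against 1.62, 1.43 and 1.54 in control, so Krt5 was in excess in 6 of 6 libraries (geometric mean 1.62, adjusted p = 0.0417 by the exact permutation test). The sum of 15 type II keratins over the sum of 13 type I keratins was 0.875, 0.976 and 0.956 in Arid1a cKO, against 0.821, 0.735 and 0.799 in control. Type II keratins were thus below type I keratins in 6 of 6 libraries (geometric mean 0.856, adjusted p = 0.0417 by the exact permutation test). Every knockout library was above every control library in this ratio, while the groups overlapped for Krt8 over Krt18, Krt7 over Krt19 and Krt5 over Krt14. Nothing is read from the separation, because the set was picked on this contrast. With coding length in place of exon length, the mean log2 ratio of Krt8 over Krt18 was 0.19. That of Krt5 over Krt14 was 0.76, and its exact permutation test gave an adjusted p of 0.0625 over the 4 ratios and 0.0365 over the 7 neighbouring pairs. That of all type II over all type I keratins was -0.092 (adjusted p = 0.219 by the exact permutation test).

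The 8 genes made up nearly all keratin RNA, 97.1% of the summed level per kilobase in Arid1a cKO and 96.7% in control. Krt5 held 43.5 ± 1.34% of it in Arid1a cKO and 39.6 ± 1.49% in control (SD, n = 3 each). Krt17 held 20.5 ± 0.964% in Arid1a cKO and 24.5 ± 1.68% in control. Counts of Krt17 were 72.3%, 74.6% and 67.8% of those of Krt14 in Arid1a cKO, against 80.0%, 86.4% and 83.2% in control, a ratio whose groups did not overlap. The groups overlapped for Krt18 over Krt14, Krt15 over Krt14 and Krt7 over Krt8. Nothing is read from the separation, because the set was picked on this contrast and ratios of other genes were not examined. Counts of Krt8 were 5.73%, 7.24% and 7.90% of those of Krt5 in Arid1a cKO, against 7.61%, 7.03% and 3.52% in control. The share of the simple relative to the stratified keratin overlapped between genotypes and was low in control replicate 3.

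Of the non-keratin genes that passed the filter, the nearest on either side of Krt8 and Krt18 did not pass the test. Eif4b and Tns2, 41.7 and 68.4 kb beyond Krt18, had log2 fold changes of 0.07 and 0.0030 (edgeR, adjusted p = 0.826 and 0.99). The other side is taken up by the keratin cluster, and the nearest such genes there lay at its far end, 591 kb and 706 kb from Krt8. Atg101, the farther, had -0.05 (adjusted p = 0.804), and Gm35853, a predicted gene that spans Krt80 on the opposite strand, was at 3.91, 2.24 and 2.98 CPM in Arid1a cKO, against 1.06, 0.731 and 1.82 CPM in control. The Gm35853 groups did not overlap, but its log2 fold change of 1.34 did not pass the test (adjusted p = 0.0822).

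Lists of other genes were examined beside the keratins, and 4 of their 117 tested genes rose and 3 fell, where 3.96% of all genes tested passed in either direction. For several lists, counts at an unadjusted p under 0.05 and with DESeq2 are also given. DESeq2 called 1935 of all 19613 genes tested, and the share of all genes at an unadjusted p under 0.05 was not counted. Nothing is read from these further counts. Of 14 general epithelial genes tested, 2 rose and 0 fell in Arid1a cKO, where 1.5% of all genes tested rose and 2.46% fell. Their median log2 fold change was 0.47, and all 14 were above 0, where 50.8% of all genes tested were above 0. Epcam, an epithelial adhesion molecule, was at 50.9, 42.9 and 47.8 CPM in Arid1a cKO, against 34.1, 34.2 and 33.6 CPM in control, and rose 1.39-fold (edgeR, adjusted p = 0.0199). Cldn4, a tight junction claudin, rose 2.88-fold at a low level (1.94, 1.57 and 1.75 CPM in Arid1a cKO, against 0.510, 0.435 and 0.876 CPM in control, adjusted p = 0.0375). Cldn4 no longer passed once control replicate 1 or 2 or any 1 knockout library was left out (adjusted p up to 0.123 with edgeR), and Epcam once any 1 control library or Arid1a cKO replicate 3 was left out (up to 0.077). The summed level of the list was 300.4 to 518 CPM in Arid1a cKO and 248 to 359 CPM in control. The groups overlapped, with higher values in Arid1a cKO as for the keratins, and the part of epithelial cell number in their levels was not tested.

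The list of enamel-forming and dental epithelial markers varied widely between libraries of one genotype. Its summed level was 2544, 1325 and 1840 CPM in Arid1a cKO, against 1479, 1233 and 4496 CPM in control. Amelx, which encodes the main enamel matrix protein amelogenin, was at 634, 34.8 and 227 CPM in Arid1a cKO, against 134, 171 and 1914 CPM in control. Control replicate 3 and Arid1a cKO replicate 1 were highest in this list within their genotypes, as they were for Krt5, Krt14, Krt15, Krt17 and Krt7. None of the 11 genes passed the edgeR test (2 at an unadjusted p under 0.05, 2 with DESeq2), no listed gene was at 0 in all libraries, and the part of these cells in the keratin levels was not tested.

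Desmosomes and hemidesmosomes are the junctions that anchor keratin filaments at the cell surface. Of 21 desmosome and hemidesmosome genes, 0 passed with edgeR (8 at an unadjusted p under 0.05, 3 with DESeq2). Their median log2 fold change was 0.25, and 16 of the 21 were above 0, where 50.8% of all genes tested were above 0. Evpl, the cornified envelope and desmosome linker envoplakin, was at 55.2, 39.2 and 53.1 CPM in Arid1a cKO, against 21.6, 22.7 and 33.5 CPM in control (adjusted p = 0.0624). Itgb4, the hemidesmosomal integrin chain that binds plectin and so links to the keratins, was at 185, 129 and 190 CPM in Arid1a cKO, against 87.0, 111 and 113 CPM in control (adjusted p = 0.0767). The 2 genes of this list with the highest level did not rise in this way. Dst and Plec had log2 fold changes of -0.28 and 0.03 (edgeR, adjusted p = 0.183 and 0.884). Perp, Ppl, Col17a1 and Lama3 also lay below 0, at -0.33, -0.32, -0.14 and -0.45. Of 8 genes for proteins that organise or modify keratin filaments, 0 passed with edgeR, with 0 at an unadjusted p under 0.05 and 0 with DESeq2 (median -0.03).

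Among 17 tested genes for transcription factors known to act on keratin genes or epithelial identity, 1 rose and 1 fell, with a median log2 fold change of 0.23. Grhl3, a grainyhead factor of epidermal barrier formation, was at 2.45, 2.14 and 2.21 CPM in Arid1a cKO, against 1.08, 1.05 and 1.13 CPM in control, and rose 2.08-fold (edgeR, adjusted p = 0.0290). Ets2, an ETS factor, was at 121, 131 and 136 CPM in Arid1a cKO, against 165, 160.1 and 153 CPM in control, and fell by 0.30 on the log2 scale (adjusted p = 0.0475). Both calls were lost when any 1 library was left out, with an adjusted p of up to 0.0945 for Grhl3 and 0.142 for Ets2 (edgeR).

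Keratinised oral epithelium also expresses stratified keratins, and its markers were examined. Of 13 listed genes 6 were tested, of which 0 rose and 1 fell (median log2 fold change -0.42). Another 3 of the 13, Sprr1a, Sprr1b and Ivl, were not among the genes measured, and Lor averaged 1.34 CPM in Arid1a cKO and 1.02 CPM in control. Tgm1, a transglutaminase that cross-links the cornified envelope, was at 40.7, 40.2 and 34.5 CPM in Arid1a cKO, against 95.9, 85.0 and 82.7 CPM in control. It fell by 1.19 on the log2 scale (edgeR, adjusted p = 0.00537). The summed level of the list was 63.1 to 71.2 CPM in Arid1a cKO and 114 to 139.9 CPM in control, and most of it was Tgm1. Without Tgm1 the sum was 30.5, 28.8 and 28.6 CPM in Arid1a cKO, against 44.0, 29.19 and 40.4 CPM in control, and the groups overlapped. Of the 6 tested genes Lor and Lypd3 had log2 fold changes above 0, at 0.39 and 0.33 (edgeR, adjusted p = 0.51 and 0.514). The part of these cells in the keratin levels was not tested. Krtdap, a gene of differentiating keratinocytes, was at 0.357, 0.325 and 0.231 CPM in Arid1a cKO, against 0.0319, 0 and 0.110 CPM in control, and was too low to be tested. Calml3, also too low to be tested, went the other way, at 0.102, 0.108 and 0.0989 CPM in Arid1a cKO, against 0.574, 0.145 and 0.438 CPM in control.

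Of 20 other measured keratins, 11 were tested and 0 passed with edgeR (4 at an unadjusted p under 0.05, 2 with DESeq2). Their median log2 fold change was -0.035, and 5 of the 11 were above 0. The 2 that DESeq2 called, Krt28 and Krt73, had log2 fold changes of opposite sign with edgeR. Krt80, a type II keratin and the most abundant of them, was at 50.6, 13.7 and 25.7 CPM in Arid1a cKO, against 10.0, 13.5 and 34.6 CPM in control. Krt28, a type I keratin of the inner root sheath of hair, was at 9.35, 0.352 and 4.02 CPM in Arid1a cKO, against 0.223, 0.109 and 0.730 CPM in control, with an adjusted p of 0.175. Both were highest in Arid1a cKO replicate 1 among knockouts and in control replicate 3 among controls, like Krt5 and Krt14. Krt73 was at 0.408, 0.0271 and 0.0989 CPM in Arid1a cKO, against 0.733, 0.290 and 3.32 CPM in control. Its log2 fold change was -2.94 (edgeR, adjusted p = 0.204). Krt222 was at 2.47, 3.36 and 3.36 CPM in Arid1a cKO, against 6.09, 3.26 and 4.46 CPM in control. Its log2 fold change was -0.59 (edgeR, adjusted p = 0.223). Krt10, a type I keratin of differentiating epidermis, was at 4.66, 4.74 and 4.37 CPM in Arid1a cKO and 4.33, 3.65 and 4.13 CPM in control. Its log2 fold change was small, at 0.18 (edgeR, adjusted p = 0.491), though its groups did not overlap. Krt1 was at 1.73, 0.758 and 1.22 CPM in Arid1a cKO, against 0.637, 0.689 and 0.475 CPM in control (adjusted p = 0.145). Of the 11 tested, these 2 were higher in Arid1a cKO without overlap and 0 were lower. Among all genes tested, 13.8% were higher without overlap and 15.3% lower.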

How the data were processed

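RNA from 6 libraries of proximal incisor was read as single-end reads of 75 cycles, per the labels' protocols, and processed with STAR 2.6.1d and Partek on mm10, per the submitters' processing notes. No source used here names the annotation release or says whether counting used strand. The authors deposited estimated counts for 25703 genes, which were rounded to whole numbers. A second table the authors deposited holds normalized signal for 21456 genes and was used as an alternative.

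Genes were kept with filterByExpr (minimum count 10), leaving 19613, scaled by TMM (factors 0.961 to 1.04) and compared between genotypes with the quasi-likelihood F test of edgeR 4.0.16 (glmQLFit with robust estimation, two-sided, no covariates, R 4.3.3), with Benjamini-Hochberg adjustment across the tested genes at 0.05. CPM uses TMM-scaled library sizes, and logarithms of CPM a prior count of 2. The totals limit precision only for low genes such as Krt19. SE was taken as log2 fold change over root F. Levels per kilobase use union exon lengths of GENCODE M21, whose coordinates equal the deposited ones for the 8 keratins. Exact sign-flip permutation tests were run on ratios within a library with Python 3.11.15.

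The 8 genes, the gene lists and the tests were chosen with earlier results of these data known. Named genes in each list are the 3 with the smallest p and the 2 highest in level, with more of each for the other keratins. A part of these is printed, with Arid1a, the neighbours of Krt8 and Krt18, and the genes most like each pair. Krtdap, Calml3, Lor, Lypd3, Perp, Ppl, Col17a1 and Lama3 were named after their values were seen. Alternatives were RLE, upper quartile and library size scaling, DESeq2 1.42.0, limma 3.58.1 (voom, and log2 of the signal table with pseudocounts 1 and 5), no filter, a filter of 1 CPM in all libraries, coding length and each library left out. Replicate numbers follow accession order and name libraries only. The count test was tested on simulated data.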

Additional observations from a re-analysis of the deposited data

How the results depend on the processing

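The log2 fold change of each of the 7 keratins stayed above 0 under every alternative that gave it a value. Krt7 did not pass the filter of 1 CPM in all libraries and had no value there. With each library left out the log2 fold change ranged from 0.97 to 1.22 for Krt8, 0.84 to 1.09 for Krt18, 0.57 to 1.44 for Krt7 and 0.61 to 1.09 for Krt5. On the signal table with pseudocount 5, Krt8 was at 0.84, Krt18 at 0.69 and Krt7 at 0.14, and the simple minus stratified difference of 0.40 was 0.025 (0.19 with pseudocount 1), because a larger pseudocount pulls low genes toward 0. That difference was 0.17 to 0.54 with each library left out. With coding length, log2 Krt8 over Krt18 was 0.19 and log2 Krt18 over Krt8 -0.19, both reversed. With coding length, Krt7 over Krt19 was 2.82, Krt5 over Krt14 0.76 and all type II over type I -0.092, none past the test when adjusted over the 4 ratios (adjusted p = 0.0625, 0.0625 and 0.219 by the exact permutation test). With 5 libraries that test cannot go below 0.0625.

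DESeq2 called 1935 genes, where edgeR called 777, and 21 of the 117 listed genes, where edgeR called 7. The cause was not tested. With each library left out, 160 to 532 genes and 1 to 8 listed genes were called. Tgm1 passed under all alternatives run. The calls of Epcam, Cldn4 and Grhl3 were lost with libraries left out, and that of Ets2 also under 6 other settings. Cldn4 did not pass the filter of 1 CPM in all libraries and was not tested there. No paired analysis was possible because the numbers in the sample titles do not pair the genotypes. Depth limits Krt19 and Krt7.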

Other observations

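Intermediate filament genes outside the keratins moved in both directions. Of 10 tested, 1 rose and 1 fell in Arid1a cKO, with a median log2 fold change of 0.12. Nes, which encodes nestin, a filament protein of progenitor cells and of odontoblasts, was at 240.2, 339 and 259 CPM in Arid1a cKO, against 601, 444 and 477 CPM in control. It fell by 0.86 on the log2 scale (edgeR, adjusted p = 0.0359). Lmnb1, which encodes lamin B1 of the nuclear lamina, was at 109.8, 118 and 109.9 CPM in Arid1a cKO, against 87.9, 90.9 and 94.6 CPM in control, and rose 1.24-fold (adjusted p = 0.0346). Either call was lost without any 1 control library and without some knockout libraries, with an adjusted p of up to 0.118 for Nes and 0.106 for Lmnb1.

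Markers of other cell types did not pass the test. Of 11 dental mesenchyme genes 0 passed with edgeR (1 at an unadjusted p under 0.05, 1 with DESeq2), of 5 endothelial genes 0 passed (1 unadjusted, 0 with DESeq2), and of 3 tested gland or airway genes 0 passed (0 unadjusted, 0 with DESeq2). Of the mesothelial list, whose cells also carry Krt7, Krt8, Krt18 and Krt19, 0 genes were tested. Lrrn4, the mesothelial gene measured here, was at 0.637, 0.460 and 0.297 CPM in Arid1a cKO, against 0.223, 0.217 and 0.183 CPM in control. Its groups did not overlap, at a level too low to be tested, and the part of such cells in the keratin levels was not tested.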
